A study of Mus musculus with 4 samples.

Results

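Apolipoproteins are the protein components of plasma lipoproteins, and the values described here are those of 10 mouse apolipoprotein genes in liver: Apoa1, Apoa2, Apoa4, Apoa5, Apob, Apoc1, Apoc2, Apoc4, Apoe and Apoh. They were taken as every probe set whose single gene symbol in the platform annotation was one of these names, which gave 10 of the 8251 genes named by a single symbol and 14 of the 12488 probe sets of the array; Apoa5 had 3, Apoa2 and Apoe 2 each, and the others 1. Total liver RNA was hybridised to Affymetrix MG_U74Av2 arrays, 2 from PEPCK-TAg mice and 2 from wild-type mice. In PEPCK-TAg mice a transgene encodes both SV40 oncoproteins, large T antigen and small t antigen, and is driven by the promoter of Pck1, the phosphoenolpyruvate carboxykinase gene. It is thus limited to cells in which that promoter is active, and wild-type mice lack it. All animals were male B6SJL hybrids of 58 to 60 days, kept from weaning for 4 weeks on chow with 70% carbohydrate and 10% protein. The labels speak of duplicate measurements and do not name separate animals, so p-values measure only how these 4 arrays vary, and that variation may be technical. The series asks which liver genes change when the viral proteins are present at low levels for a long time.

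Lipoproteins carry triglyceride and cholesterol between liver, intestine and other tissues. Apob is the structural protein of very low and low density lipoproteins, and is lipidated during synthesis by the microsomal transfer protein encoded by Mttp. Apoa1 and Apoa2 are the main proteins of high density lipoprotein, Apoe is a ligand of lipoprotein receptors, and the smaller apolipoproteins adjust the activity of lipoprotein lipase on triglyceride-rich particles. Apoa1, Apoa4 and Apoa5 lie in one cluster on chromosome 9, and Apoc2, Apoc4, Apoc1 and Apoe, in this order, in one on chromosome 7.

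Apoa4, Apoa5, Apoc4 and Apoa2 were lower in PEPCK-TAg liver, and no apolipoprotein was called higher. Of the 14 probe sets, 13 passed the filter on low signals, and 6 of these, from 4 genes, were lower (limma, Benjamini-Hochberg adjusted p under 0.05) while 0 were higher, with 9 lower and 0 higher at an unadjusted p under 0.05. Over all 7453 probe sets tested, 3.07% were called lower and 6.40% higher, 9.47% in all; at an unadjusted p under 0.05 there were 823 lower (11.0%) and 1156 higher (15.5%). The median log2 change (PEPCK-TAg minus wild type) of the 13 was -0.52, against 0.01 for all probe sets tested. The 2 groups did not overlap in 12 of the 13, all but Apob, and of these Apoc2 had PEPCK-TAg on the higher side. Over all tested probe sets 56.5% did not overlap (26.3% with PEPCK-TAg on the lower side). Changes were below 0 in 12 of the 13, all but Apoc2, and in 3686 of all 7453. In the top decile of mean signal, which held 11 of the 13, 69.8% of changes were below 0. The count of 6 was 3 without wild-type replicate 1. The signals of every probe set are shown array by array.

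**Figure D1:**
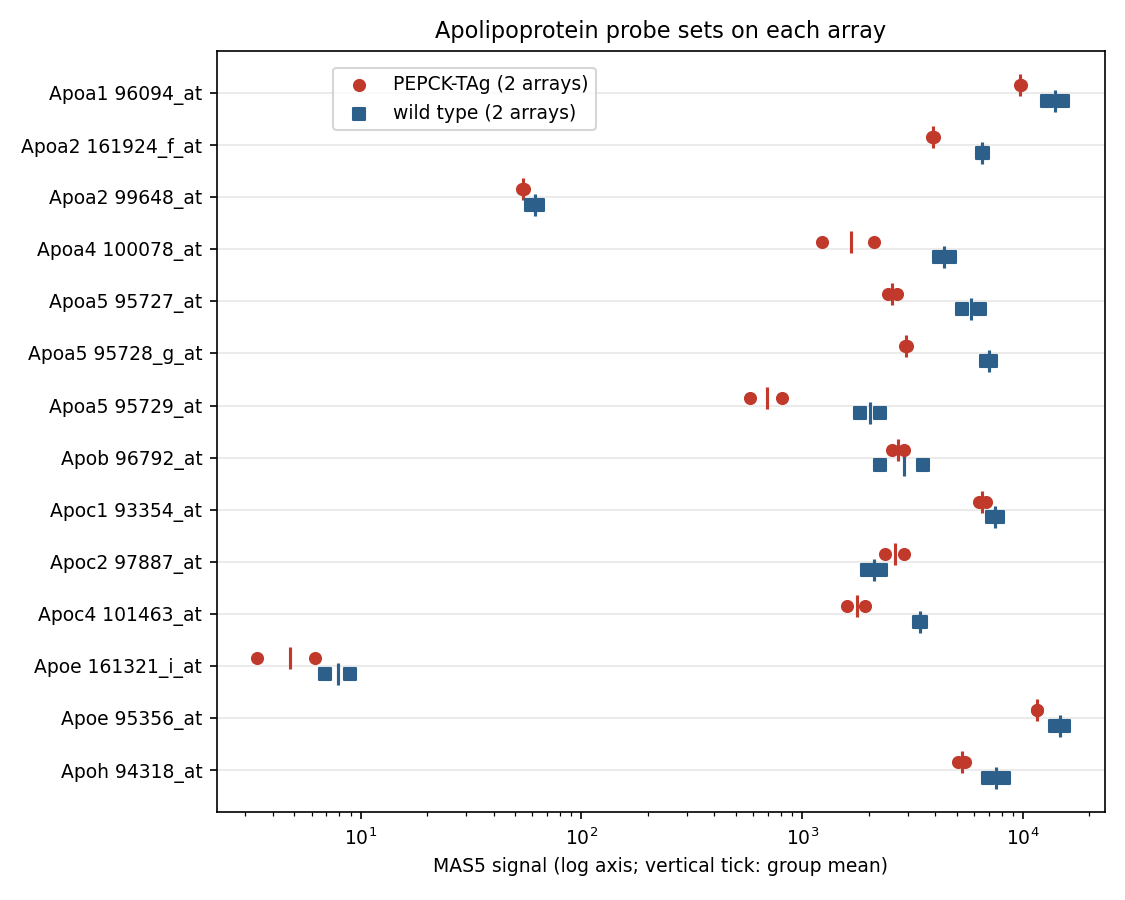
MAS5 signal (log axis) of the 14 apolipoprotein probe sets on each array, with red circles for the 2 PEPCK-TAg arrays above blue squares for the 2 wild-type arrays and a vertical tick at each group mean. The 3 Apoa5 probe sets, Apoa4 and Apoc4 stand furthest apart, Apob overlaps, and 1 probe set each of Apoa2 and Apoe lies far below the others.

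The bright end of the scale was lower on both PEPCK-TAg arrays, and many apolipoprotein probe sets lie in it. The 99th percentile of the signal was 4825 and 4461 on the PEPCK-TAg arrays, against 6153 and 5696 on the wild-type arrays, and the highest signal 13339 and 12446 against 16723 and 14429.7. The files hold no saturation flag, so probe sets at or above the 99th percentile on every array were taken as bright, without a claim that any spot was saturated. Of 89 such probe sets, 87 had a log2 change below 0, with a median of -0.33 and a range of -0.64 to 0.21, and 2, or 2.25%, were called lower. Apoa1, Apoe, Apoc1 and Apoh (probe sets 96094_at, 95356_at, 93354_at and 94318_at) were among the 89. At or above the 95th percentile on every array there were 469 probe sets, 10 of them of apolipoprotein genes, with a median log2 change of -0.22, and 49, or 10.4%, were called lower. The deposited arrays shared a trimmed mean of 250.2 but differed in their top values. Quantile normalization, which gives all arrays the same top values, is therefore quoted beside the bright members.

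**Figure D2:**
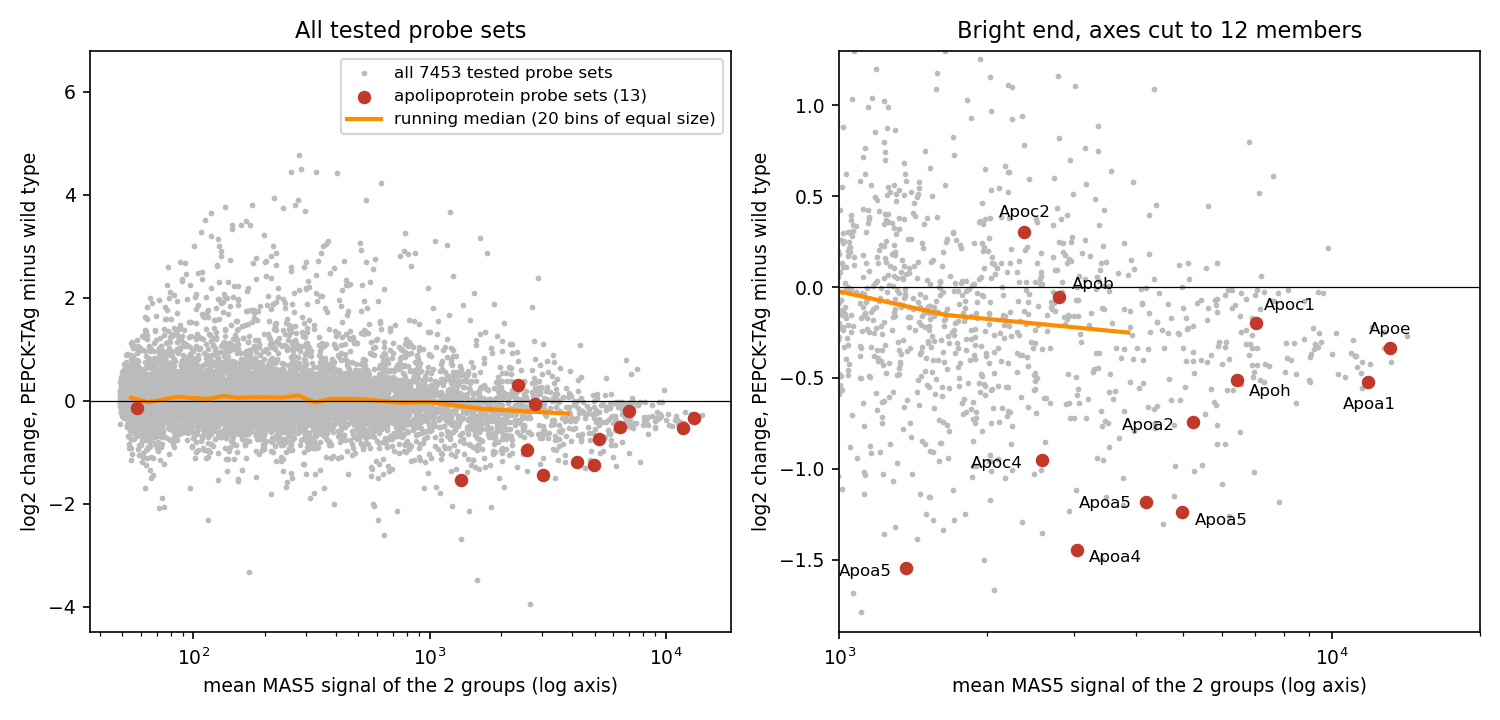
Log2 change, PEPCK-TAg minus wild type, against the mean MAS5 signal (log axis) for all 7453 tested probe sets in grey, with the 13 tested apolipoprotein probe sets in red and a running median in orange. The right panel cuts the axes to the bright end, where the median runs below 0 and Apoa4, Apoa5, Apoc4 and Apoa2 lie below most probe sets of their brightness.

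Apoa5, whose product raises the hydrolysis of triglyceride by lipoprotein lipase, was lower on all 3 of its probe sets. Probe set 95728_g_at had signals of 2925 and 2993 in PEPCK-TAg liver, against 6811 and 7188 in wild-type liver. The PEPCK-TAg arrays nearly coincided, at 42.3% of the wild-type mean, and the log2 change was -1.24 ± 0.13 (SE, limma, Benjamini-Hochberg adjusted p = 0.0032). Probe set 95727_at measured 2440 and 2676 in PEPCK-TAg, against 5281 and 6390 in wild type, with a log2 change of -1.18 ± 0.15 (limma, adjusted p = 0.00716). The third, 95729_at, measured 579 and 810.3 in PEPCK-TAg, against 1823 and 2246 in wild type, with a log2 change of -1.54 ± 0.21 (limma, adjusted p = 0.00842). Groups were apart on each, with PEPCK-TAg means at 34.1% to 43.8% of wild type. The 3 probe sets read the same RNA on the same arrays and are not independent, and the g in one name marks probes held in common with another probe set. All 3 were called lower in each of 13 alternative fits, with log2 changes from -1.78 to -0.95.

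Apoa4, which encodes a protein of triglyceride-rich and high density particles made in intestine and liver, had signals of 1226 and 2105 in PEPCK-TAg liver, against 4143 and 4668 in wild-type liver. The 2 PEPCK-TAg arrays differed widely from each other, and both lay below both wild-type arrays. Its log2 change was -1.45 ± 0.25 (SE, limma, Benjamini-Hochberg adjusted p = 0.0196), a mean of 37.8% of wild type. Leaving out the lower PEPCK-TAg array (replicate 1) gave a change of -1.06, and leaving out the other gave -1.83, and its call was lost without either wild-type array (limma, adjusted p = 0.0585 for replicate 1 and 0.0651 for replicate 2). Intestine also makes Apoa4. The summed signal of 7 intestinal markers on the array ranged from 1104 to 1300.4 in PEPCK-TAg and from 1001.9 to 1009 in wild type. Only Fabp2, Anpep and Tff3 passed the filter, and they made up most of the sum. Without Tff3 the summed signal was not higher in PEPCK-TAg. Of 3 tested intestinal markers 0 were called (limma). Fabp2 had a log2 change of -0.004 ± 0.21 and Anpep of -0.36 ± 0.17. Tff3, which encodes a secreted mucosal peptide, was higher at an unadjusted p under 0.05, with signals of 497 and 147.4 in PEPCK-TAg, against 70.4 and 24 in wild type. The groups of Tff3 were apart, with a log2 change of 2.36 ± 0.59 (limma, adjusted p = 0.0572), which passed without PEPCK-TAg replicate 2 (adjusted p = 0.00251). The part of intestinal RNA in the Apoa4 signal was not tested. Vil1, Cdx1, Cdx2 and Lct were below the filter. Vil1 had signals of 1.90 on both PEPCK-TAg arrays and 2.60 and 2.20 on the wild-type arrays.

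Apoa1, the neighbour of these genes on chromosome 9, had signals of 9772 and 9645 in PEPCK-TAg liver, against 15159.7 and 12806 in wild-type liver. Both PEPCK-TAg arrays were lower, by -0.52 ± 0.13 in log2 (SE) and without a call (limma, Benjamini-Hochberg adjusted p = 0.0575). Apoa1 lay at percentiles 99.86 to 99.95 of the arrays. After quantile normalization its signals were 10609 and 11491 in PEPCK-TAg, against 12259.5 and 12367 in wild type, a log2 change of -0.16 (limma, adjusted p = 0.305), and with arrays centred on their medians the change was -0.66 (adjusted p = 0.0284). The call on Apoa1 thus differed between scalings.

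Apoa2, the other main protein of high density lipoprotein, was read by a pair of probe sets that differed in brightness and in result. Probe set 161924_f_at had signals of 3865 and 3959 in PEPCK-TAg liver, against 6523.5 and 6568 in wild-type liver. Both groups were tight and far apart, and the log2 change was -0.74 ± 0.12 (SE, limma, Benjamini-Hochberg adjusted p = 0.0166). Its suffix marks sequence that related transcripts can share. Probe set 99648_at measured 53.7 and 54.8 in PEPCK-TAg, against 63.5 and 59.2 in wild type, a log2 change of -0.14 ± 0.26 (limma, adjusted p = 0.777), close to the lowest signal tested. The fall of 161924_f_at was -0.42 after quantile normalization (limma, adjusted p = 0.0668), and its call was lost in 6 of 13 alternatives, among them leaving out either PEPCK-TAg array (adjusted p = 0.0778 for replicate 1 and 0.0669 for replicate 2) or wild-type replicate 1 (0.0552).

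Apoc4, which encodes a minor protein of very low density lipoprotein, had signals of 1601 and 1924 in PEPCK-TAg liver, against 3364 and 3441 in wild-type liver. The wild-type arrays nearly coincided, and both PEPCK-TAg arrays lay lower, at 51.8% of the wild-type mean. The log2 change was -0.95 ± 0.15 (SE, limma, Benjamini-Hochberg adjusted p = 0.0149), and -0.79 after quantile normalization (adjusted p = 0.0278). Leaving out replicate 1 of either group ended the call (limma, adjusted p = 0.0558 without the PEPCK-TAg array and 0.0509 without the wild-type array).

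The neighbours of Apoc4 on chromosome 7 were not called. Apoc2, whose product is the cofactor that activates lipoprotein lipase, had signals of 2876.5 and 2373 in PEPCK-TAg liver, against 1973 and 2269 in wild-type liver. The groups were apart with PEPCK-TAg on the higher side, and Apoc2 was the 1 member with a log2 change above 0, at 0.30 ± 0.16 (SE), not past the threshold (limma, Benjamini-Hochberg adjusted p = 0.295). Its change stayed above 0 in each of 13 alternative fits, from 0.16 to 0.47, and passed in none of them. Apoc1, an inhibitor of lipoprotein lipase and of receptor uptake, measured 6790 and 6293 in PEPCK-TAg, against 7263 and 7732 in wild type. Its log2 change of -0.20 ± 0.12 (limma, adjusted p = 0.377) turned to 0.081 with quantile normalization and 0.096 with cyclic loess. Whether Apoc4 and Apoc2 differed in their change was not tested.

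Apoe, the receptor ligand of remnant particles, had signals of 11611 and 11616 in PEPCK-TAg liver, against 15400.1 and 13991 in wild-type liver on probe set 95356_at. It lay at percentiles 99.96 to 99.99 of the arrays, and the groups were apart. The log2 change was -0.34 ± 0.12 (SE), beside a median of -0.33 for the 89 bright probe sets, and was not past the threshold (limma, Benjamini-Hochberg adjusted p = 0.130). After quantile normalization Apoe measured 12490 and 13421 in PEPCK-TAg, against 12942 on both wild-type arrays, and the change was 0.00064, while it was 0.035 with cyclic loess. The other Apoe probe set, 161321_i_at, had signals of 6.20 and 3.40 in PEPCK-TAg, against 8.90 and 6.90 in wild type, and was below the filter. Macrophages also make Apoe, and of 13 tested Kupffer cell and macrophage markers 5 were higher and 0 lower, with a median log2 change of 1.31. Among all probe sets tested, 6.40% were higher and 3.07% lower. The groups overlapped for the markers Adgre1, Csf1r, Lyz2 and Marco. The summed signal of the 14 macrophage markers on the array ranged from 13277 to 17808.5 in PEPCK-TAg and from 4079 to 7507.5 in wild type. The part of these cells in the Apoe signal was not tested. In whole liver, fewer cells of a type and less RNA per cell cannot be told apart.

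Apob had signals of 2885 and 2540.2 in PEPCK-TAg liver, against 2258 and 3512 in wild-type liver. The wild-type arrays lay on either side of both PEPCK-TAg arrays, so the groups overlapped, and the log2 change was -0.06 ± 0.22 (SE, limma, Benjamini-Hochberg adjusted p = 0.903). It was -0.37 without wild-type replicate 1 and 0.26 without wild-type replicate 2, and above 0 also with quantile normalization (0.10) and cyclic loess (0.12). Apoh, which encodes the phospholipid-binding plasma protein beta-2-glycoprotein I, measured 5480 and 5092 in PEPCK-TAg, against 8189 and 6909 in wild type. Both PEPCK-TAg arrays were lower, and the log2 change of -0.51 ± 0.14 did not pass (limma, adjusted p = 0.0732). The change of Apoh was -0.19 with quantile normalization (limma, adjusted p = 0.273) and -0.65 with median centring (adjusted p = 0.0369).

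**Figure D3:**
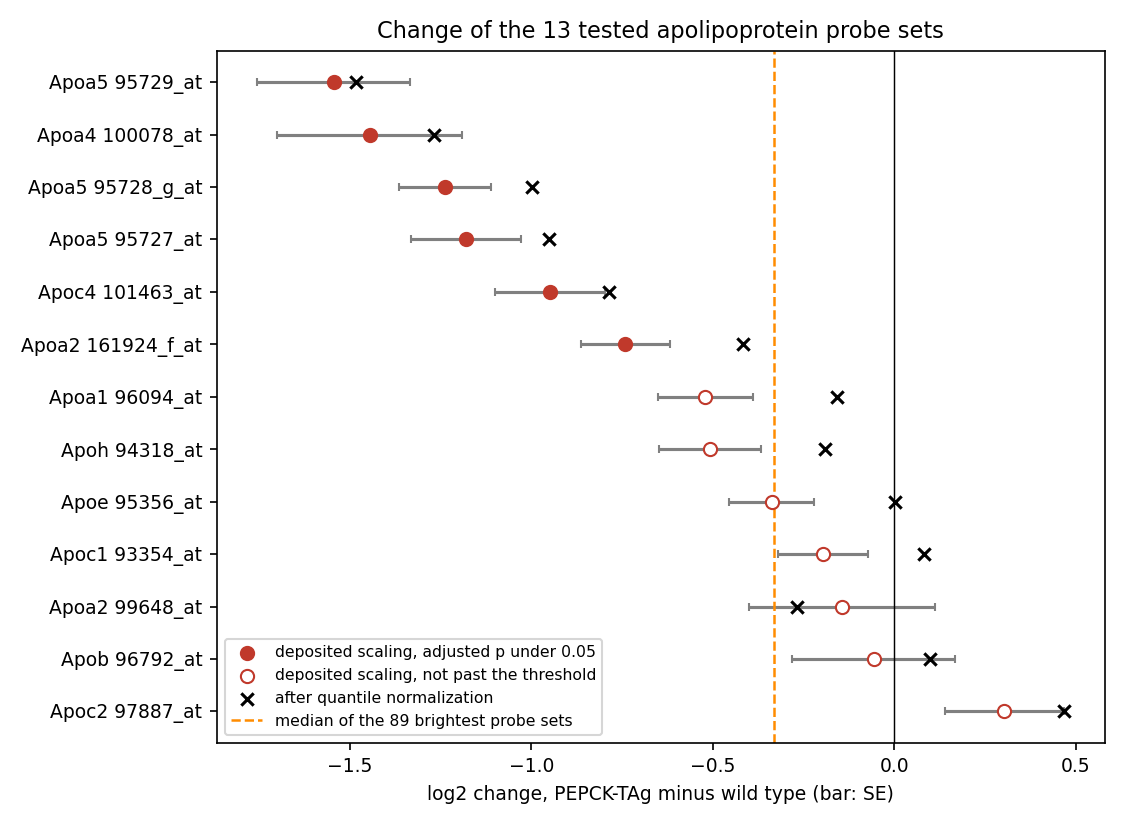
Log2 change, PEPCK-TAg minus wild type, of the 13 tested probe sets with SE bars, filled where called at an adjusted p under 0.05, with crosses for the values after quantile normalization and a dashed line at the median of the 89 brightest probe sets (-0.33). The line is the median under the deposited scaling and was not redrawn for the crosses. Apoa4, Apoa5, Apoc4 and Apoa2 161924_f_at stay left of it in both settings, while Apoe, Apoc1 and Apob move to 0 or above after quantile normalization.

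The promoters of Apoa4, Apoa5 and Apoc4, called lower, and of Apoc2, the neighbour of Apoc4 that was not, are given to set them side by side. Sequences are from RefSeq on GRCm38.p6, 250 bases before to 50 after the start site, 5' to 3' in the direction of transcription. Capitals mark matches on either strand to the nuclear receptor half-site AGGTCA, the HNF4-specific motif CAAAGTCCA, the E-box CACGTG and the TATA box TATAAA.
Apoa4 (chr9:46240594-46240893, plus strand): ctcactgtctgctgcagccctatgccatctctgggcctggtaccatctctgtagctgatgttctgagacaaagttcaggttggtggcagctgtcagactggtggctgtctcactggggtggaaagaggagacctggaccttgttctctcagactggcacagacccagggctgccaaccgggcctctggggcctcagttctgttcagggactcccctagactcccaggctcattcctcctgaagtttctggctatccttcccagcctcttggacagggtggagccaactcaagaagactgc
Apoa5 (chr9:46268358-46268657, plus strand): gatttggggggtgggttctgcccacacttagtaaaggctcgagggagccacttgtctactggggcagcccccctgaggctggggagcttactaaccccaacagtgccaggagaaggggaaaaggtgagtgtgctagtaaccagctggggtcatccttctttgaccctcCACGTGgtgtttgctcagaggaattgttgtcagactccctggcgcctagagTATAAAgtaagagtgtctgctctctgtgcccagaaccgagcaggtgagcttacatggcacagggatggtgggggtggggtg
Apoc4 (chr7:19681411-19681710, minus strand): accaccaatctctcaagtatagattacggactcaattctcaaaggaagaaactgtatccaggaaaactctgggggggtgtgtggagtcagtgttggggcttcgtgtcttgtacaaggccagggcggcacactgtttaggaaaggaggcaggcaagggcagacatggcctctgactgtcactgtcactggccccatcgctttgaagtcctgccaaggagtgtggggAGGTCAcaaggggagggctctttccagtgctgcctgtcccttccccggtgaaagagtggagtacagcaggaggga
Apoc2 (chr7:19677892-19678191, minus strand): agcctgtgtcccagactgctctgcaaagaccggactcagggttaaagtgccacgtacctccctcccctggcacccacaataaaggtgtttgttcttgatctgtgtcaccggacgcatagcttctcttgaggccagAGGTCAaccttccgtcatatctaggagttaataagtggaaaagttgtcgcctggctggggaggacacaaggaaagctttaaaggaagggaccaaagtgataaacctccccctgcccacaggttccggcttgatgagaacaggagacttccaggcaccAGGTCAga
The Apoa5 window held an E-box and a TATA box, the Apoc4 window 1 half-site, the Apoc2 window 2 half-sites, and the Apoa4 window none of these letters. The half-site was present in 16.3% of all 32817 promoter windows of this length, the E-box in 7.15%, the TATA box in 13.6% and the HNF4-specific motif in 0.475%. Of the 10 genes, 9 had a window, 13 windows in all. The half-site was found in 4 of the 13 windows (4 genes) and the E-box in 2 (1 gene). The TATA box was found in 5 (4 genes) and the HNF4-specific motif in 0. The TATA box matches lay between -212 (Apoa2) and -31 (Apoa5) from the start site. These matches describe letters and no binding was measured.

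Hepatocyte markers that are no apolipoproteins had changes below 0 on their brightest probe sets, though few passed the test. Of 12 tested, 1, the retinol carrier gene Rbp4, was called lower and 0 higher (limma). Among all probe sets tested, 3.07% were called lower and 6.40% higher. On the brightest probe set of each gene all 12 log2 changes were below 0, with a median of -0.40. A second Hpx probe set, 161827_f_at, lay above 0 at 0.40 ± 0.13 (limma, adjusted p = 0.121). All 12 markers except Fga and Tat were among the 89 bright probe sets. Of those 89, 87 had a change below 0, with a median of -0.33. For the markers among them, a hepatocyte trait cannot be told apart from brightness. Fga (-0.72 ± 0.19) and Tat (-1.05 ± 0.38) had the lowest changes of the 12, without a call (limma, adjusted p = 0.0681 and 0.140). Both still lay at percentile 96.4 or higher on every array. Rbp4, itself among the 89 bright probe sets, had a log2 change of -0.64 ± 0.13 (limma, adjusted p = 0.0278) and lost its call in 8 of 13 alternatives, among them quantile normalization (a change of -0.34 with an adjusted p of 0.0681), cyclic loess (-0.32 with 0.0932) and leaving out any 1 array (adjusted p from 0.0504 to 0.159). The summed signal of the 12 markers ranged from 76406 to 85565 in PEPCK-TAg liver and from 99785 to 112292 in wild-type liver. Alb, which encodes serum albumin, measured 13339 and 12446 in PEPCK-TAg, against 16723 and 14429.7 in wild type, with a log2 change of -0.27 ± 0.13 (SE, limma, Benjamini-Hochberg adjusted p = 0.237). The marker changes ran from -1.05 for Tat to -0.08 for Hpx. The changes of Apoe (-0.34), Apoh (-0.51) and Apoa1 (-0.52) lay near the hepatocyte marker median. Those of Apoa2 161924_f_at (-0.74) and Apoc4 (-0.95) lay further below it, within the range of the markers only through Tat (-1.05 ± 0.38). All other markers had changes closer to 0 than theirs. Apoa5 (-1.18 to -1.54) and Apoa4 (-1.45) lay below that range. Apoc1 (-0.20), Apoa2 99648_at (-0.14), Apob (-0.06) and Apoc2 (0.30) lay above the median. A difference between these genes and the markers was not tested.

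Among other genes of the lipoprotein pathway, the lipoprotein lipase gene had the largest change of those tested. Of 109 genes in 5 lists, 65 were tested, and 2 were higher and 5 lower, with a median log2 change of -0.20. Over all 7453 probe sets tested, 6.40% were called higher and 3.07% lower. Lpl, whose product hydrolyses the triglyceride of circulating particles and is activated by the protein of Apoc2, measured 1529 and 1333 in PEPCK-TAg liver, against 233 and 150.2 in wild-type liver on probe set 95611_at. Both PEPCK-TAg arrays were far above both wild-type arrays, with a log2 change of 2.85 ± 0.23 (SE, limma, Benjamini-Hochberg adjusted p = 0.00179). Its second probe set, 160083_at, measured 223 and 103 in PEPCK-TAg, against 13 and 11.9 in wild type, with a log2 change of 2.70 ± 0.39 (limma, adjusted p = 0.0103). Macrophages also express Lpl, and 5 of the 13 macrophage markers tested beside Apoe were higher, while 8 did not pass; their part in the Lpl signal was not tested.

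Of 15 tested genes of assembly and secretion, 1 was higher and 1 lower, counts near the shares over all probe sets tested (6.40% higher and 3.07% lower). Apobec1, which encodes the enzyme that edits the Apob transcript to its short form, measured 404 and 376 in PEPCK-TAg liver, against 159.5 and 204 in wild-type liver. Both PEPCK-TAg arrays were higher, with a log2 change of 1.06 ± 0.19 (SE, limma, Benjamini-Hochberg adjusted p = 0.0196). Leaving out replicate 1 of either group ended the call on Apobec1 (limma, adjusted p = 0.0619 without the PEPCK-TAg array and 0.0641 without the wild-type array), and its probe set can read related transcripts. Cideb, which encodes a lipid droplet protein needed to load very low density lipoprotein, changed by -0.66 ± 0.14 (limma, adjusted p = 0.0345), a call lost without any 1 of the 4 arrays (adjusted p from 0.0611 to 0.126). Mttp measured 407 and 253 in PEPCK-TAg, against 659 and 578 in wild type, a log2 change of -0.92 ± 0.24 that did not pass (limma, adjusted p = 0.0668). Mia3, which encodes a cargo receptor of the secretory pathway, had -0.77 ± 0.19 (limma, adjusted p = 0.0532). The carboxylesterase gene Ces1d, chosen after its values were seen because its probe sets differ in call, had -0.68 ± 0.25 on its brighter probe set (limma, adjusted p = 0.141), while its other probe set, 101538_i_at, was called lower at -1.01 ± 0.24 (adjusted p = 0.0463).

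Of 10 tested genes that remodel lipoproteins in plasma, Lpl was higher and Lmf1, which encodes a maturation factor of lipoprotein lipase, lower by -0.72 ± 0.17 in log2 (SE, limma, Benjamini-Hochberg adjusted p = 0.0478). For this list and those below, the shares over all probe sets tested were 6.40% higher and 3.07% lower. The call on Lmf1 was lost without any 1 of the 4 arrays (adjusted p from 0.0843 to 0.208). The paraoxonase gene Pon1 had a log2 change of -0.70 ± 0.17 (limma, adjusted p = 0.0565), and Lcat, which encodes the cholesterol-esterifying enzyme of high density lipoprotein, -0.68 ± 0.21 (adjusted p = 0.0934). The phospholipid transfer gene Pltp measured 303 and 620.5 in PEPCK-TAg liver, against 182 and 335 in wild-type liver, with overlapping groups and a log2 change of 0.78 ± 0.39 (limma, adjusted p = 0.263). Of 12 tested receptors and transporters, 1 was lower and 0 higher: Pdzk1, which encodes the adaptor of the high density lipoprotein receptor, changed by -0.79 ± 0.17 (limma, adjusted p = 0.0386) and lost its call without PEPCK-TAg replicate 2 (adjusted p = 0.167) or either wild-type array (0.0902 and 0.105). Lrp1, a receptor of Apoe-bearing remnants, had -0.56 ± 0.15 (limma, adjusted p = 0.0657), the sterol exporter gene Abcg1 0.66 ± 0.21 (adjusted p = 0.101) and the lysosomal membrane gene Scarb2 -0.43 ± 0.15 (adjusted p = 0.136). Of 5 other apolipoproteins tested, 0 were called (limma), and 1, Saa2, was higher at an unadjusted p under 0.05, with 1051 and 595 in PEPCK-TAg, against 502 and 361 in wild type. Apom, which encodes a carrier of sphingosine phosphate on high density lipoprotein, had a log2 change of -0.29 ± 0.15 (limma, adjusted p = 0.286), Saa4 -0.57 ± 0.48 (adjusted p = 0.505) and Clu, the clusterin gene, 0.13 ± 0.13 (adjusted p = 0.560).

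**Figure D4:**
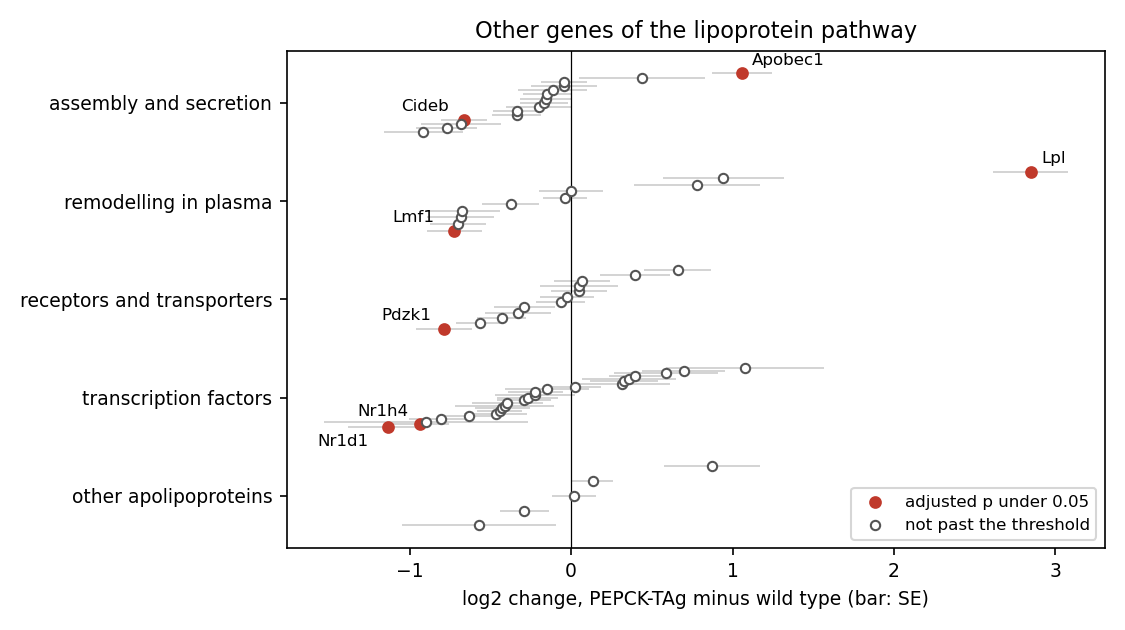
Log2 change, PEPCK-TAg minus wild type, with SE bars for the 65 tested genes of 5 lipoprotein lists, each gene by its brightest probe set, filled and named where called at an adjusted p under 0.05. Lpl at 2.85 and Apobec1 at 1.06 are the 2 calls above 0, and the 5 below 0 lie between -1.13 and -0.66.

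Of 23 tested transcription factors known to act on apolipoprotein genes, 2 were lower and 0 higher, with a median log2 change of -0.27. Among all probe sets tested, 3.07% were lower and 6.40% higher, with a median log2 change of 0.01. Nr1h4, which encodes the bile acid receptor, measured 605 and 510.4 in PEPCK-TAg liver, against 1189.9 and 968 in wild-type liver. Both PEPCK-TAg arrays were lower, with a log2 change of -0.93 ± 0.18 (SE, limma, Benjamini-Hochberg adjusted p = 0.0255), a call on Nr1h4 that ended without PEPCK-TAg replicate 2 (adjusted p = 0.0854) and without wild-type replicate 1 (0.0934). Nr1d1, which encodes the clock repressor REV-ERB alpha, measured 114 and 178 in PEPCK-TAg, against 293.5 and 368 in wild type, with a log2 change of -1.13 ± 0.25 (limma, adjusted p = 0.0371). The call on Nr1d1 ended without PEPCK-TAg replicate 1 (limma, adjusted p = 0.106) and without either wild-type array (0.0667 and 0.111). Ppara, which encodes the fatty acid receptor, had -0.63 ± 0.17 (limma, adjusted p = 0.0713), and the E-box factor gene Usf1 -0.81 ± 0.20 on one probe set (adjusted p = 0.0530) and 0.08 ± 0.19 on the other (adjusted p = 0.838). Hnf4a, which encodes a nuclear receptor of liver genes, measured 136 and 20.3 in PEPCK-TAg, against 113 and 124 in wild type, with overlapping groups and a log2 change of -0.90 ± 0.63 (limma, adjusted p = 0.426).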

How the data were processed

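Each of 4 arrays (2 PEPCK-TAg, 2 wild type, grouped by sample title) gave 1 intensity per probe set. The deposited values are MAS5 signal intensities on a linear scale, per the submitters' processing notes; for the software version, scaling target and detection calls, the sources used here give nothing. The trimmed mean (2% removed at each end) was 250.2 on every array, so no further normalization was applied. Per the file headers, the arrays shared chip lot, fluidics station and hybridization time and differed in fluidics module and time of scanning, so array and module cannot be told apart.

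The scale used was log2(signal + 13), with an offset of 5% of the trimmed mean, which understates the change of dim genes. After leaving out 66 control probe sets, those with a mean at or above the 40th percentile were kept, 7453 of 12422, the lowest near a signal of 48.1. Groups were tested two-sided by limma (version 3.58.1, R 4.3.3; eBayes with a mean-variance trend, 2 residual and 4.61 prior degrees of freedom), adjusted by Benjamini-Hochberg over all 7453 at 0.05. An exact permutation test of 2 against 2 could not go below 0.333 and was not run; precision is limited by the number of arrays. The procedure was tested on simulated data.

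Symbols came from the platform annotation (10833 probe sets with 1 symbol, 396 with several, 1193 unnamed; 10817 matched RefSeq of GRCm38.p6 by Entrez identifier). All member probe sets are reported; a list gene is represented by its brightest one. Named list genes were those past the threshold, up to 4 of smallest p per list, and Pck1, Alb, Mttp, Pltp and Hnf4a; 1 further gene of that rule is not reported here. Members, lists and tests were chosen with earlier results of these data known. Alternatives were 2 other offsets, 2 other filters, 3 normalizations, eBayes without trend, leaving out each array, and the replicate number as a block.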

Additional observations from a re-analysis of the deposited data

How the results depend on the processing

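The 3 Apoa5 probe sets were called lower in all 13 alternatives, Apoc4 in 11, Apoa4 in 10 and Apoa2 161924_f_at in 7; Apoa1 passed in 3, Apoh in 2 and Apoe in 1, and Apob, Apoc1, Apoc2 and Apoa2 99648_at in none of theirs. The count of lower apolipoprotein probe sets was 3 to 5 when 1 array was left out, and 0 were higher in any alternative. Their median log2 change was -0.27 with quantile normalization, -0.23 with cyclic loess, and -0.64 to -0.40 when 1 array was left out. With quantile normalization and cyclic loess the changes turned above 0 for Apoc1 (0.081 and 0.096), Apoe (0.00064 and 0.035) and Apob (0.10 and 0.12), and that of Apob ran from -0.37 to 0.26 when 1 array was left out; the quantile setting fixes equal top values on all arrays by construction. Over all probe sets, 477 were higher and 229 lower; the lower count was 105 without a filter, 117 without a mean-variance trend and 409 with median centring, where 403 were higher and the median change of tested probe sets was -0.14. When 1 array was left out, 294 to 401 were higher and 94 to 147 lower. The lower count of the 89 bright probe sets was 0 without a filter, with quantile normalization, cyclic loess, no trend, or 1 array left out, 5 with the filter at the 60th percentile and 16 with median centring, and 1 was higher with quantile normalization and with cyclic loess. With the 95th percentile for bright, 11 were higher and 49 lower. Of pathway genes, 1 was lower without a filter, 0 without a trend and 12 with median centring, and 1 to 3 were higher and 0 to 4 lower when 1 array was left out. The cause of these shifts was not tested.

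The titles number the arrays 1 and 2 in both groups, and the labels do not say that a number marks a shared animal or day. Deviations of same-numbered arrays from their group means correlated with 0.18 over tested probe sets, a value that is the same for both numbers with 2 arrays a group. With the replicate number as a block, 444 probe sets were lower, 9 of them of apolipoprotein genes (Apoa1, Apoh and Apoe in addition), 36 bright probe sets were lower, and 6 pathway genes were higher and 11 lower.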

Other observations

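Pck1, whose promoter drives the transgene, had signals of 1605 and 565.5 in PEPCK-TAg liver, against 2372 and 2308 in wild-type liver, a log2 change of -1.28 ± 0.43 (SE, limma, Benjamini-Hochberg adjusted p = 0.121). Saa2, a high density lipoprotein protein of the acute phase, had a change of 0.87 ± 0.30 on probe set 103465_f_at (limma, adjusted p = 0.125), and -0.33 ± 0.20 on 100333_at (adjusted p = 0.370), with 96.9 and 106 in PEPCK-TAg, against 143.5 and 119 in wild type. Hpx and Angptl4 were chosen after their values were seen, because their probe sets point in different directions. Hpx, a hepatocyte marker that encodes the heme carrier hemopexin, had 4866 and 4813 in PEPCK-TAg, against 3887 and 3472 in wild type on probe set 161827_f_at, and 7508 and 7189 against 8078 and 7433 on 98116_at. Angptl4, which encodes an inhibitor of lipoprotein lipase, had 225 and 221 in PEPCK-TAg, against 292.5 and 451 in wild type, a log2 change of -0.67 ± 0.23 (limma, adjusted p = 0.125), and 0.14 ± 0.23 on its probe set 96118_at (adjusted p = 0.762).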
